A study of Homo sapiens with 9 samples.

Results

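H9 cells transfected with an siRNA against TCF7L1 were compared with untreated H9 cells that received no siRNA. The comparison used 6 of the 9 samples of the study, 3 in each group. H9 is an established human embryonic stem cell line, and all samples carry the label day 3. In the other 3 samples the cells were transfected with a non-silencing siRNA. Untreated here means without siRNA, and the labels do not say whether these cells received transfection reagent. The difference from them holds delivery of an siRNA together with loss of TCF7L1, and the non-silencing value is given beside each named gene. All TCF7L1 siRNA samples share the same siRNA label, so loss of TCF7L1 and any other effect of that siRNA cannot be told apart. Per the design text, the study looked for putative target genes of TCF7L1. The sources used here do not give the siRNA sequences, the dose or the transfection reagent. Total RNA of each sample was hybridized to 1 Affymetrix whole-transcript array. The labels do not say whether replicates were separate cultures, so the p-values measure only the spread between these samples, which may be technical. Values after ± are the SD of the 3 samples of a group.

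TCF7L1 is a member of the TCF/LEF family, the DNA-binding proteins through which the Wnt pathway and its effector beta-catenin reach their target genes. It acts mostly as a repressor that sits on Wnt-responsive elements, and in mouse embryonic stem cells its loss delays the exit from self-renewal. In human embryonic stem cells Wnt signalling acts together with Nodal, a TGF-beta ligand that signals through activin receptors and SMAD proteins, induces its own antagonists of the LEFTY family and leads cells towards mesendoderm.

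Each value is a PLIER signal, a linear intensity that combines the probes of a probe set, and differences are on the scale of log2(signal + 16). A gene was called when its adjusted p lay under 0.05 in a limma fit of all 9 arrays. The test covered 19461 probe sets with a chromosome and exactly 1 gene symbol, which stand for 17909 genes, out of 22784 tested in all. The median signal of an array was 104.1 at the lowest and 112.6 at the highest. The interquartile range in log2 was 3.22, 2.95 and 3.10 in the TCF7L1 siRNA arrays, 3.28, 3.08 and 2.95 in the non-silencing arrays and 3.16, 3.26 and 3.20 in the arrays without siRNA. TCF7L1 siRNA replicate 2 and non-silencing replicate 3 therefore stood apart as the narrowest, and results without both arrays are given below. Pairs of TCF7L1 siRNA arrays correlated at r = 0.98 to 0.989, pairs without siRNA at 0.992 to 0.993, and pairs across the 2 groups at 0.977 to 0.994. Genes of the embryonic stem cell state, among them POU5F1, SOX2, NANOG, LIN28A and DNMT3B, had mean signals at the 87.6th to 99.5th percentile of their arrays in all groups. The summed signal of 11 such markers ran from 32301 to 34460 with TCF7L1 siRNA, from 32223 to 33256 with the non-silencing siRNA and from 32727 to 33848 without siRNA.

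The targeted transcript was strongly reduced. TCF7L1 had signals of 389, 346 and 352 in TCF7L1 siRNA samples, 1709, 1703 and 1625 in non-silencing samples, and 1473, 1842 and 1667 in those without siRNA. All 3 TCF7L1 siRNA samples were far below the other 6, and the non-silencing samples lay within the range of the untreated ones. The mean of 362 ± 23.2 (SD, n = 3) was 21.8% of that without siRNA, 1661 ± 184 (SD, n = 3). TCF7L1 fell by 2.14 on the log2 scale (SE 0.10, adjusted p = 8.05e-06), and an exact permutation test of its signals gave p = 0.1, the smallest that 3 samples against 3 allow (two-sided). Its probe set spans chr2:85360583-85537505 on the plus strand of build 37.

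Besides TCF7L1, 7 genes rose and 2 fell. With TCF7L1 itself these were 10 of 17909 genes, or 0.0558%, on 9 chromosomes, with 0.0391% of genes called higher and 0.0168% called lower. Genes that rose were DACT1, NODAL, FST, SMARCA2, THBS2, LEFTY2 and STOX2, and those that fell were CLC and AIF1. The groups did not overlap for any of the 10, where 5.71% of all tested genes were higher and 9.31% lower without overlap. In the comparison of the 2 siRNAs, which uses the same 3 TCF7L1 siRNA samples, 0.0335% of genes were called. Non-silencing siRNA against no siRNA had 0 called genes (0.0%) by limma, with 368 at an unadjusted p under 0.05, or 2.05%.

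**Figure D1:**
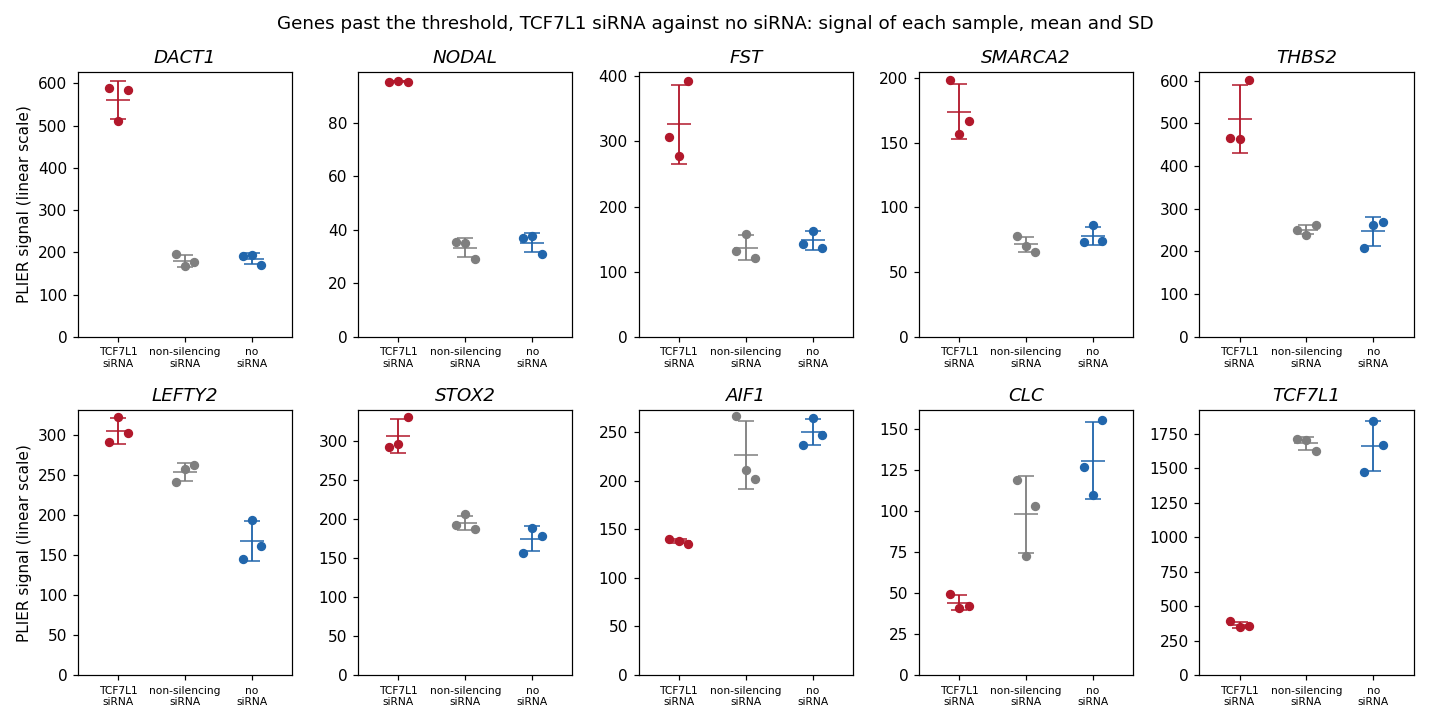
PLIER signal (linear scale) of each sample for the 10 called genes, with TCF7L1 siRNA in red, non-silencing siRNA in grey and no siRNA in blue; bars give the mean and SD of 3 samples. In each panel the red points lie clear of the blue ones, and for LEFTY2 the grey points at 241 to 262 lie between the red at 291 to 322 and the blue at 145 to 194.

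DACT1, whose product binds Dishevelled and dampens Wnt signalling, had the largest difference among the genes that rose. Its signals were 589, 510 and 585 in TCF7L1 siRNA samples, 195, 168 and 177 in non-silencing samples, and 191, 194 and 171 in those without siRNA. The 3 TCF7L1 siRNA samples stood far above all others, and the 2 control groups overlapped. The log2 difference was 1.52 from no siRNA (SE 0.10, 2.87-fold, adjusted p = 0.000123) and 1.56 from the non-silencing siRNA (adjusted p = 9.6e-05), and the non-silencing siRNA differed from no siRNA by -0.04. DACT1 lies at chr14:59104859-59115039 on the plus strand.

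The ligand NODAL and a pair of antagonists of its pathway rose. NODAL had 95.4, 95.7 and 95.3 in TCF7L1 siRNA samples, 35.6, 35.1 and 29.2 in non-silencing samples, and 36.9, 37.6 and 31.0 in those without siRNA. The 3 raised values were nearly equal, while the 6 control values were dim, with array 25th percentiles from 28 to 34.6. NODAL rose 2.18-fold, or by 1.13 in log2 (SE 0.09, adjusted p = 0.000983), stood 1.18 above the non-silencing siRNA (adjusted p = 0.00061), and the non-silencing value differed from no siRNA by -0.05. Because the offset of 16 weighs on such low signals, its difference ran from 0.77 with an offset of 50 to 1.42 with an offset of 1. The gene lies at chr10:72192071-72201466 on the minus strand.

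FST encodes follistatin, a secreted protein that binds and blocks activins. Its signals were 306, 277 and 393 in TCF7L1 siRNA samples, 131, 158 and 121 in non-silencing samples, and 142, 163 and 137 in those without siRNA. All 3 TCF7L1 siRNA samples were above all 6 others, although they differed among themselves more than the controls did. FST rose by 1.05 (SE 0.14, 2.07-fold, adjusted p = 0.0303) and stood 1.16 above the non-silencing siRNA (adjusted p = 0.0219), which differed from no siRNA by -0.10. It lies at chr5:52776417-52781943 on the plus strand.

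For LEFTY2, a Nodal antagonist that Nodal signalling itself induces, the non-silencing samples stood between the other groups. It had 291, 322 and 302 in TCF7L1 siRNA samples, 241, 258 and 262 in non-silencing samples, and 145, 194 and 161 in those without siRNA. The 3 groups formed 3 separate steps with no overlap. LEFTY2 rose by 0.82 against no siRNA (SE 0.11, 1.77-fold, adjusted p = 0.0303). The non-silencing siRNA alone stood 0.57 above no siRNA (unadjusted p = 0.000288, adjusted p = 0.927), and TCF7L1 siRNA stood 0.25 above the non-silencing siRNA (unadjusted p = 0.0413, adjusted p = 1.0). Neither of these 2 steps passed the threshold. LEFTY2 lies at chr1:226124298-226129189 on the minus strand. LEFTY1, its close paralogue on the same chromosome, had 247, 263 and 264 in TCF7L1 siRNA samples, 223, 216 and 204 in non-silencing samples, and 149, 198 and 209 in those without siRNA. Its difference of 0.46 (SE 0.12, adjusted p = 0.481) did not pass, and the non-silencing siRNA stood 0.20 above no siRNA. Whether probes of one paralogue also bind transcripts of the other was not tested.

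SMARCA2 encodes BRM, an ATPase that drives SWI/SNF chromatin remodelling. It had 198, 157 and 167 in TCF7L1 siRNA samples, 77.7, 70.5 and 65.7 in non-silencing samples, and 73.6, 86.2 and 73.8 in those without siRNA. The lowest TCF7L1 siRNA sample was well above the highest control. SMARCA2 rose by 1.01 (SE 0.11, 2.02-fold, adjusted p = 0.00933) and stood 1.12 above the non-silencing siRNA (adjusted p = 0.00353), with -0.10 for non-silencing against no siRNA. It lies at chr9:2015342-2193624 on the plus strand. The alternative ATPase of the complex, SMARCA4, stood at -0.05 against no siRNA, and at 0.02 in non-silencing samples (SE 0.09, adjusted p = 0.881 with TCF7L1 siRNA). SMARCA4 was named after its value was seen. Of 25 tested SWI/SNF genes SMARCA2 alone was called, 11 lay above 0 and the median was -0.03, equal to the median of -0.03 over all genes. After quantile normalization 14 lay above 0 and the median was 0.01. The subunit gene ARID1A had 0.17 (SE 0.09, unadjusted p = 0.0953) against 0.01 with the non-silencing siRNA, and BRD7, the lowest member, had -0.16 with either siRNA.

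Among matrix genes THBS2, which encodes the secreted glycoprotein thrombospondin 2, rose. Its signals were 465, 463 and 601 in TCF7L1 siRNA samples, 251, 239 and 262 in non-silencing samples, and 208, 263 and 270 in those without siRNA. The 2 control groups overlapped and lay below all TCF7L1 siRNA samples. THBS2 rose by 1.0 (SE 0.13, 2.0-fold, adjusted p = 0.0303) and stood 0.97 above the non-silencing siRNA (adjusted p = 0.0455), which differed from no siRNA by 0.03. It lies at chr6:169615875-169654139 on the minus strand. The matrix proteoglycan gene VCAN (versican) had 2392, 2445 and 2617 in TCF7L1 siRNA samples, 1691, 1878 and 1705 in non-silencing samples, and 1650, 1814 and 1707 in those without siRNA. The TCF7L1 siRNA samples lay above all others and the 2 control groups overlapped, but the difference of 0.52 (SE 0.09, adjusted p = 0.132) did not pass. Of 14 tested thrombospondins and matrix partners 5 lay above 0 (median -0.05), and the fibronectin gene FN1 was lowest at -0.30, against -0.29 with the non-silencing siRNA.

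STOX2, a storkhead-box gene whose product carries a winged-helix DNA-binding domain, had 292, 296 and 331 in TCF7L1 siRNA samples, 193, 206 and 187 in non-silencing samples, and 157, 189 and 178 in those without siRNA. The TCF7L1 siRNA samples were above all others, and the control groups overlapped. STOX2 rose by 0.76 (SE 0.10, 1.69-fold, adjusted p = 0.0303). Against the non-silencing siRNA its difference was 0.61, which did not pass (adjusted p = 0.155), and the non-silencing siRNA stood 0.15 above no siRNA. It lies at chr4:184826509-184938875 on the plus strand.

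Both genes that fell besides TCF7L1 are known from blood cells. CLC, which encodes galectin-10, the protein of the Charcot-Leyden crystals of eosinophils, had 49.4, 40.7 and 42.3 in TCF7L1 siRNA samples, 119, 72.9 and 103 in non-silencing samples, and 127, 110 and 156 in those without siRNA. The non-silencing samples lay lower than, and overlapped with, the untreated ones. CLC fell by 1.28 (SE 0.16, adjusted p = 0.0303). Its difference from the non-silencing siRNA was -0.91, which did not pass (adjusted p = 0.179), and the non-silencing siRNA differed from no siRNA by -0.37 (unadjusted p = 0.0393). AIF1, which encodes an actin- and calcium-binding protein of macrophages and microglia, had 140, 138 and 135 in TCF7L1 siRNA samples, 266, 211 and 202 in non-silencing samples, and 237, 264 and 247 in those without siRNA. The 3 TCF7L1 siRNA values were almost equal and below all 6 controls. AIF1 fell by 0.79 (SE 0.11, adjusted p = 0.0321), with -0.65 against the non-silencing siRNA (adjusted p = 0.155) and -0.14 for non-silencing against no siRNA. It is measured by 3 probe sets with identical values, which is why 12 probe sets, or 0.0617%, stand for 10 genes. CLC lies at chr19:40221895-40228668 on the minus strand and AIF1 at chr6:31583005-31584802 on the plus strand.

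Of 16 tested haematopoietic and myeloid markers CLC and AIF1 were called and 12 lay above 0 (median 0.10, and -0.01 with array spread as a covariate). All but 1 of the 16 lay below the median signal of all genes, and in the dimmest of 4 equal groups of all genes 66.9% lay above 0. In the comparisons that share these samples, 12 of 16 lay above 0 for the non-silencing siRNA against no siRNA (median 0.14) and 6 of 16 for TCF7L1 siRNA against the non-silencing siRNA (median -0.03). PTPRC, the common leukocyte antigen, was too dim to be tested, at means of 11.7 with TCF7L1 siRNA, 12.3 with the non-silencing siRNA and 13.3 without siRNA. Summed signals of the 18 markers other than CLC and AIF1 ran from 1434 to 1850 with TCF7L1 siRNA, from 1363 to 1877 with the non-silencing siRNA and from 1378 to 1456 without siRNA. In such bulk samples fewer cells of a type and less RNA per cell cannot be told apart.

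The calls differed in how they held when 1 array or setting was changed. TCF7L1 and DACT1 passed in all 24 alternatives, and NODAL in the 23 that tested it, since a filter at the array median left it out. SMARCA2 passed in 21 and missed the threshold without TCF7L1 siRNA replicate 3 (adjusted p = 0.0702), without no siRNA replicate 1 (0.126) and without no siRNA replicate 3 (0.106). FST passed in 18, and missed it without TCF7L1 siRNA replicate 1 (0.0731) or 3 (0.176), non-silencing replicate 2 (0.0533), or no siRNA replicate 1 (0.226), 2 (0.088) or 3 (0.207). The other 5 genes that passed were lost without any 1 of the 3 TCF7L1 siRNA arrays, at adjusted p from 0.0615 to 0.176 for THBS2, 0.0731 to 0.205 for LEFTY2, 0.0615 to 0.205 for STOX2, 0.0615 to 0.196 for CLC and 0.0883 to 0.208 for AIF1. Without no siRNA replicate 1 they were lost at 0.176 each. Without no siRNA replicate 3 the values were 0.126 for THBS2, 0.207 for LEFTY2 and AIF1, 0.183 for STOX2 and 0.175 for CLC. Leaving out no siRNA replicate 2 ended the calls of THBS2 (0.0901), STOX2 (0.0789) and AIF1 (0.236), and leaving out non-silencing replicate 2 those of THBS2, LEFTY2, STOX2 and AIF1 (0.0808 each). Without both narrowest arrays DACT1, NODAL, SMARCA2, FST and TCF7L1 still passed, while THBS2 (0.109), LEFTY2 (0.183), STOX2, CLC and AIF1 (0.133 each) did not. The sign of the difference was the same in all alternatives for all 10 genes.

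Beyond the called genes, the 5 higher genes of next smallest p were tested without passing. FERMT1, which encodes the integrin activator kindlin-1, averaged 300 ± 15.6 with TCF7L1 siRNA, 214 ± 12.2 with the non-silencing siRNA and 200 ± 12.5 without siRNA (0.55, SE 0.09, adjusted p = 0.115). The orphan receptor gene GPR50 averaged 511 ± 18.7 with TCF7L1 siRNA, 328 ± 27.3 with the non-silencing siRNA and 309 ± 49.8 without siRNA (0.71, SE 0.12, adjusted p = 0.115). For the spalt-like zinc finger gene SALL3 the means were 260 ± 11.5 with TCF7L1 siRNA, 170 ± 5.38 with the non-silencing siRNA and 169 ± 21.1 without siRNA (0.58, SE 0.10, adjusted p = 0.132). Like VCAN, these genes had higher signals in every TCF7L1 siRNA sample than in any control. GLIPR1L1 did so too, with 88.9 ± 3.56 with TCF7L1 siRNA, 64.3 ± 4.26 with the non-silencing siRNA and 55.7 ± 6.37 without siRNA (0.55, SE 0.09, adjusted p = 0.132).

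On the lower side 9 genes followed, and none passed. Nearest to the threshold was RIPOR2, listed as FAM65B, an inhibitor of the small GTPase RhoA. It averaged 327 ± 81.6 with TCF7L1 siRNA, 647 ± 169 with the non-silencing siRNA and 810 ± 76.7 without siRNA (-1.29, SE 0.19, adjusted p = 0.0551), and it passed in 11 of 24 alternatives. The potassium channel gene KCNJ2 averaged 39.9 ± 2.34 with TCF7L1 siRNA, 49.8 ± 1.58 with the non-silencing siRNA and 65.3 ± 2.62 without siRNA (-0.54, SE 0.08, adjusted p = 0.0753). Its 3 groups stood in separate steps, of -0.24 between the siRNAs and -0.31 between the non-silencing siRNA and no siRNA. DGKK, a diacylglycerol kinase gene on the X chromosome, had 149 ± 11.5 with TCF7L1 siRNA, 234 ± 18.3 with the non-silencing siRNA and 231 ± 9.88 without siRNA (-0.58, SE 0.10, adjusted p = 0.115). There the 2 control groups were nearly level.

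In GABRP, a GABA receptor subunit gene, the means were 196 ± 55.8 with TCF7L1 siRNA, 288 ± 83.9 with the non-silencing siRNA and 429 ± 34.4 without siRNA (-1.10, SE 0.21, adjusted p = 0.203), and the 2 siRNA groups overlapped. SPTSSB, listed as C3orf57 and encoding a small subunit of serine palmitoyltransferase, had 155 ± 36.3 with TCF7L1 siRNA, 228 ± 51.9 with the non-silencing siRNA and 312 ± 49.8 without siRNA (-0.95, SE 0.18, adjusted p = 0.226), again with overlap of the siRNA groups. The chemerin receptor gene CMKLR1 averaged 67.6 ± 11.8 with TCF7L1 siRNA, 110 ± 18.3 with the non-silencing siRNA and 136 ± 20.6 without siRNA (-0.87, SE 0.14, adjusted p = 0.115). All of these had intermediate non-silencing means. So did NTS, the neurotensin gene, at -0.75 against no siRNA, and -0.22 in non-silencing samples, CCDC80, at -0.53 and -0.17 in the same order, and the centrosomal gene CEP19, listed as C3orf34, at -0.48 and -0.25.

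**Figure D2:**
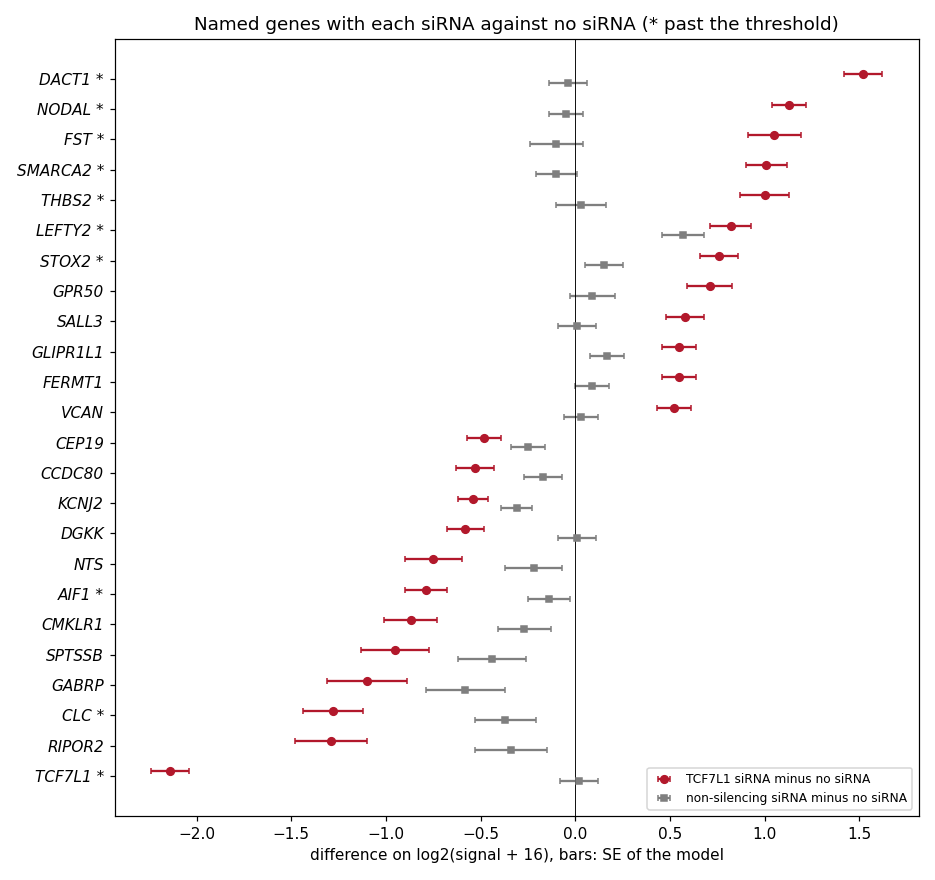
Difference from no siRNA, on log2(signal + 16), in TCF7L1 siRNA samples (red circles) and non-silencing samples (grey squares), for TCF7L1, the other called genes (asterisks) and those of next smallest p, 12 in each direction; bars are the SE of the model. Grey squares of the higher genes lie between -0.10 and 0.17 except LEFTY2 at 0.57, and those of the lower genes range from 0.02 for TCF7L1 to -0.58 for GABRP.

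Small differences across all genes depended on signal. In the lowest of 4 equal groups of genes by signal the median difference was 0.08 and 66.9% lay above 0, while the medians of the other 3 were -0.04, -0.07 and -0.05. After quantile normalization, which gives all arrays the same spread, the 4 medians were 0.01, -0.02, -0.02 and 0.00. In the lowest group the median was 0.01 for TCF7L1 siRNA against the non-silencing siRNA and 0.06 for the non-silencing siRNA against no siRNA, comparisons that share these samples. Over all genes 41.5% lay above 0. At an unadjusted p under 0.05 there were 353 higher genes (1.97%) and 973 lower genes (5.43%). The gene lists below were read against these values, and the part of signal level in each list was not tested.

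**Figure D3:**
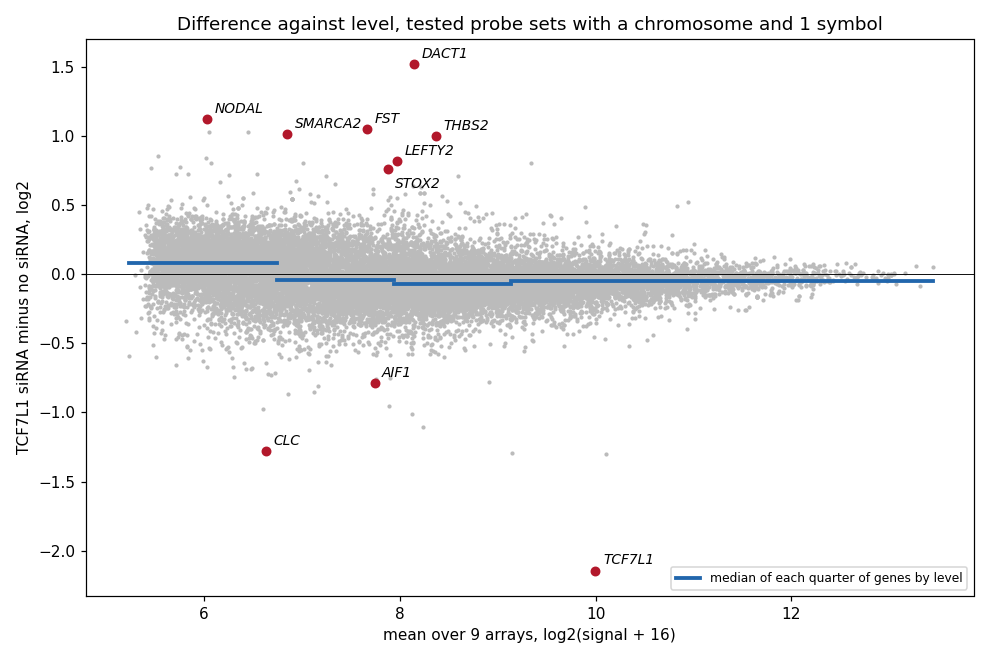
Difference between TCF7L1 siRNA and no siRNA (log2) against the mean over the 9 arrays, log2(signal + 16), for the tested probe sets with a chromosome and 1 symbol (grey), with the 10 called genes in red and the median of each of 4 equal groups of genes by signal in blue. The blue line lies at 0.08 for the lowest and between -0.04 and -0.07 for the others.

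Of the 30 gene lists, that of the primitive streak and mesendoderm had the highest median. It held 21 tested genes, 20 of them above 0, with a median of 0.20, and 15 of the 21 lay below the median signal of all genes. NODAL was called. At an unadjusted p under 0.05 were also the Wnt ligand genes WNT8A (0.34, SE 0.09) and WNT3 (0.28, SE 0.08) and the Wnt-responsive factor gene SP5 (0.33, SE 0.12), none of which passed. With the non-silencing siRNA WNT8A had -0.05, WNT3 -0.01 and SP5 0.25 against no siRNA. The regulators of the streak itself had small differences, with TBXT (listed as T) at 0.02, EOMES at 0.09 and MIXL1 at 0.13, against -0.09, 0.10 and 0.01 with the non-silencing siRNA. MESP2 was the lowest member at -0.02, against 0.08 with the non-silencing siRNA. In the comparisons that share these samples, the list's median was 0.06 for TCF7L1 siRNA against the non-silencing siRNA and 0.08 for the non-silencing siRNA against no siRNA, with 15 of 21 above 0 in each. After quantile normalization 18 genes lay above 0 and the median was 0.21. The median was 0.10 without TCF7L1 siRNA replicate 2 and 0.06 with array spread as a covariate.

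Among Nodal antagonists and target genes 10 of 14 lay above 0 (median 0.14), and 8 did after quantile normalization (median 0.17). The median was 0.08 for TCF7L1 siRNA against the non-silencing siRNA and 0.01 for the non-silencing siRNA against no siRNA. FST and LEFTY2 were called, and LEFTY1 (0.46), PMEPA1 (0.34) and SKIL (0.24) had an unadjusted p under 0.05 without passing; the last 2, inhibitors of SMAD signalling, were named after their values were seen. With the non-silencing siRNA PMEPA1 had 0.08 and SKIL 0.02. The list of Nodal ligands, receptors and SMADs had 7 of 18 genes above 0 and a median of -0.03, with 11 above 0 and a median of 0.02 after quantile normalization. Apart from NODAL its members lay between -0.36 for the receptor gene TGFBR2 (unadjusted p = 0.0133) and 0.39 for the co-receptor gene CFC1 (SE 0.24), against -0.30 and 0.24 with the non-silencing siRNA.

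Wnt pathway genes other than DACT1 and TCF7L1 were not called. Of 21 tested Wnt target and feedback genes 17 lay above 0 (median 0.09), and 15 did after quantile normalization (median 0.12). Of the 21, 14 lay below the median signal of all genes. In the comparisons that share these samples, 16 lay above 0 for the non-silencing siRNA against no siRNA (median 0.07). For TCF7L1 siRNA against the non-silencing siRNA 14 did (median 0.04). AXIN2, which encodes a scaffold of the complex that degrades beta-catenin, had 253, 220 and 260 in TCF7L1 siRNA samples, 198, 230 and 221 in non-silencing samples, and 199, 217 and 200 in those without siRNA (0.23, SE 0.10, unadjusted p = 0.0388, adjusted p = 0.662). Its TCF7L1 siRNA samples were above the untreated ones and overlapped with the non-silencing ones. LEF1 had 0.17 (SE 0.13) and KREMEN1, the lowest, -0.37 (SE 0.13), against 0.02 and -0.19 with the non-silencing siRNA. Among 18 TCF/LEF factors and cofactors TCF7L1 was called, and the median was -0.04. The paralogue TCF7L2 had 0.01 (SE 0.11), and the cofactor gene TLE5, listed as AES, -0.47 (SE 0.11, unadjusted p = 0.0012), against -0.06 and -0.13 with the non-silencing siRNA. In the list of Dishevelled binding and the destruction complex 5 of 15 genes lay above 0 (median -0.05), with 7 above 0 after quantile normalization. Without DACT1 its members ran from -0.18 for BTRC to 0.23 for AXIN2, against -0.07 and 0.07 with the non-silencing siRNA. Wnt ligands and secreted antagonists had 17 of 27 genes above 0 (median 0.07, and -0.02 with array spread as a covariate), with WNT10B highest at 0.42, against 0.34 with the non-silencing siRNA.

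Genes that respond to FGF and ERK signalling had no called member and 11 of 19 above 0, with a median of 0.00 and 0.06 after quantile normalization. All 5 genes at an unadjusted p under 0.05 were lower. SPRY4, an ERK inhibitor, had 1682, 1621 and 1711 in TCF7L1 siRNA samples, 2125, 2006 and 1845 in non-silencing samples, and 2096, 2286 and 2218 in those without siRNA (-0.39, SE 0.09, adjusted p = 0.417). Its TCF7L1 siRNA samples lay below both other groups. ETV5, an ERK-responsive transcription factor gene, had -0.60 (SE 0.15), against -0.20 with the non-silencing siRNA. The others, named after their values were seen, were SPRY2 (-0.33), SPRY1 (-0.31) and the phosphatase gene DUSP6 (-0.28), against -0.11, -0.12 and -0.03 with the non-silencing siRNA.

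Core factors of the pluripotent state were measured at similar levels. POU5F1 averaged 5279 ± 113 with TCF7L1 siRNA, 5124 ± 117 with the non-silencing siRNA and 5178 ± 108 without siRNA (0.03, SE 0.08). NANOG had 2164 ± 201 with TCF7L1 siRNA, 1909 ± 72.9 with the non-silencing siRNA and 1911 ± 102 without siRNA (0.18, SE 0.10), and its second probe set, on chromosome 12, had 0.18 as well. The probe set with these means lies in a copy of NANOG on chromosome 15, so signals of the gene and its copy cannot be told apart. SOX2 stood at -0.13 (SE 0.10), against -0.12 with the non-silencing siRNA. In the list of primed pluripotency 12 of 24 genes lay above 0 (median 0.01), and 16 did after quantile normalization (median 0.03). Its extremes were OTX2 at 0.50 (SE 0.12, unadjusted p = 0.00142) and DPPA2 at -0.63 (SE 0.18, unadjusted p = 0.00501), against 0.13 and -0.52 with the non-silencing siRNA. Of 12 tested naive-state genes 8 lay above 0 (median 0.16, but -0.06 for TCF7L1 siRNA against the non-silencing siRNA), between NR5A2, a nuclear receptor gene, at 0.49 (SE 0.13) and the germline gene DPPA3 at -0.52 (SE 0.14), against -0.17 and -0.09 with the non-silencing siRNA. No gene of either list passed.

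Lists of other lineages had no called gene, and their members were mostly of low signal. Definitive endoderm had 13 of 15 genes above 0 (median 0.12, with 10 above 0 after quantile normalization), with the forkhead factor gene FOXA2 at 0.60 (SE 0.16) and SOX17 at 0.32 (SE 0.18), against 0.24 and 0.25 with the non-silencing siRNA. Mesoderm had 14 of 17 above 0 (median 0.15), between BMP4 at 0.43 (SE 0.11) and SNAI2 at -0.65 (SE 0.15), against -0.15 and -0.22 with the non-silencing siRNA. Anterior neural ectoderm had 17 of 21 above 0 (median 0.12, and -0.02 with array spread as a covariate), between FOXB1 at 0.57 and POU3F1 at -0.53, against 0.11 and -0.07. The BMP list had 12 of 18 above 0 (median 0.11, with 14 above 0 after quantile normalization). Neural crest, with 8 of 14 above 0 (median 0.04), and trophoblast and amnion, with 11 of 17 (median 0.07), had medians that changed sign in 4 of 21 alternatives each. Against the non-silencing siRNA the medians were 0.03 for endoderm, 0.07 for mesoderm and 0.03 for neural ectoderm, and the non-silencing siRNA against no siRNA gave 0.10, 0.08 and 0.03. The median signals of these lists ran from 120 for endoderm to 210 for neural crest. They lay in the second of the 4 groups of all genes by signal (91 to 229), where 42.5% of genes were above 0, against 66.9% in the dimmest group.

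Several lists of general cell functions, and the fibroblast and feeder markers, lay on the lower side, without a called gene. Of all genes, 29.5% in the third and 27.0% in the brightest of the 4 groups by signal lay above 0. The shares of cell cycle (28.1%), heat shock (27.3%) and hypoxia and glycolysis genes (30.8%), given by count below, were near these. Fibroblast and feeder markers had 2 of 14 genes above 0 (median -0.11, and -0.14 after quantile normalization), with COL1A1 at -0.43 (SE 0.09, adjusted p = 0.298), against 0.03 with the non-silencing siRNA. For this list the non-silencing siRNA against no siRNA had 4 of 14 above 0 (median -0.08). TCF7L1 siRNA against the non-silencing siRNA had 6 (median -0.06). The summed signal of the fibroblast and feeder markers ran from 4854 to 5552 with TCF7L1 siRNA, from 5394 to 5941 with the non-silencing siRNA and from 5732 to 6139 without siRNA, and the defining markers DCN and LUM were too dim to be tested. THY1, a bright member of this sum named after its value was seen, averaged 1946 with TCF7L1 siRNA, 2162 with the non-silencing siRNA and 2305 without siRNA. It stood at the 95.3rd, 95.9th and 96.2nd percentile in the same order. Whether its signal came from fibroblasts or from the stem cells was not tested, so the sum does not by itself measure fibroblast or feeder cells. Cholesterol synthesis genes had 3 of 24 above 0 (median -0.12), p53 target genes 5 of 24 (median -0.11) and lysosome and autophagy genes 5 of 24 (median -0.09), and after quantile normalization 8, 8 and 7 genes lay above 0, with medians of -0.07, -0.06 and -0.03. With the non-silencing siRNA the medians of these lists were -0.12, -0.13 and -0.07. CDKN1A, the p53-induced cell cycle inhibitor gene, had -0.38 in TCF7L1 siRNA samples, against -0.40 in non-silencing samples (each minus no siRNA), the lysosomal lipase gene LIPA had -0.33 and -0.43 in the same order, and the sterol carrier gene STARD4 -0.25 and -0.27. Cell cycle genes had 9 of 32 above 0 (median -0.07, and 14 above 0 with a median of -0.03 after quantile normalization), between CCNE2 at 0.45 and CDK1 at -0.36 (0.04 and -0.27 with the non-silencing siRNA), and hypoxia and glycolysis genes 8 of 26 (median -0.05, and 11 above 0 after quantile normalization). Epithelial and mesenchymal genes had 6 of 20 above 0 (median -0.11) and heat shock and oxidative stress genes 6 of 22 (median -0.08).

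No tested sensor or effector of double-stranded RNA was called. Of 29 tested interferon and double-stranded RNA response genes 10 lay above 0 (median -0.04), and the 5 at an unadjusted p under 0.05 were all lower. Among them were MX2 (-0.38, SE 0.11) and IFIT1 (-0.52, SE 0.20), against -0.25 and -0.33 with the non-silencing siRNA. The small RNA silencing machinery had 8 of 16 above 0 (median 0.00) and the list of the unfolded protein response and integrated stress 9 of 20 (median -0.01). In the last of these 15 of 20 lay above 0 after quantile normalization (median 0.03), and the median changed sign in 7 of 21 alternatives. DDIT3, its highest member, stood at 0.38 (SE 0.16), against 0.10 with the non-silencing siRNA.

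**Figure D4:**
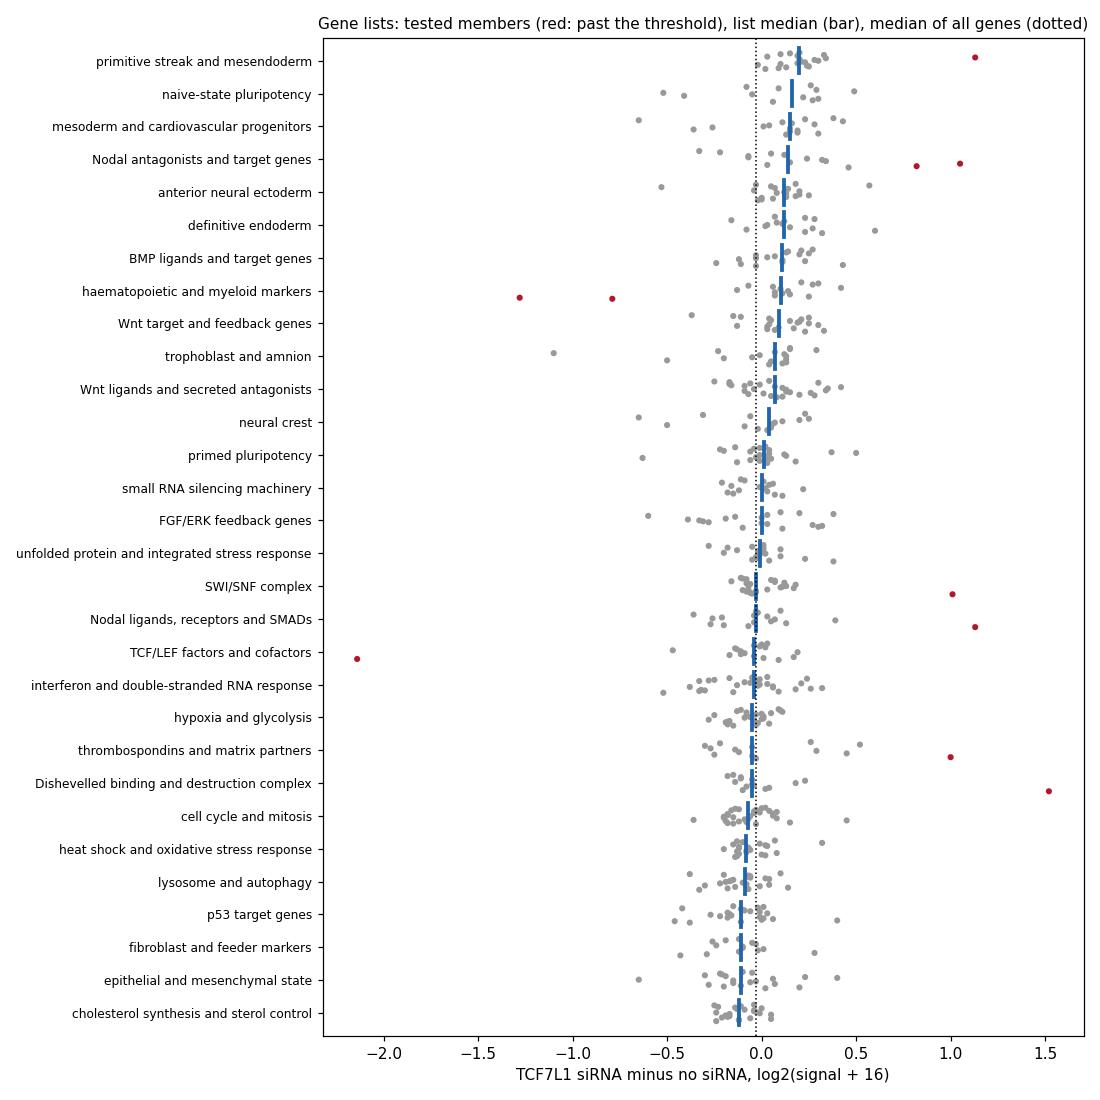
Difference between TCF7L1 siRNA and no siRNA, log2(signal + 16), for the tested members of the 30 gene lists, with called genes in red, the median of each list as a blue bar and the median of all genes, -0.03, as a dotted line. List medians run from 0.20 for primitive streak and mesendoderm to -0.12 for cholesterol synthesis, and the called genes lie well outside the bulk of their lists.

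The windows around the transcription starts of the called genes were searched for the TCF/LEF words CTTTGAA (called word 1), CTTTGAT (word 2), CTTTGTA (word 3) and CTTTGTT (word 4) on both strands. RefSeq gave 16 windows of 300 bases on GRCh38, from 250 before to 50 after a start, for 9 of the 10 genes. A word was found in 2 of the 16 windows, 1 of DACT1 and 1 of STOX2, where 10.1% of 19305 windows of tested genes and 13.8% of all 35116 windows hold one. The pair of windows is shown because they hold the words, which are in capitals. That of DACT1 (chr14:58633811-58634110, plus strand) belongs to 1 of its 3 annotated starts and has CTTTGAA at position -214 from the start.
DACT1: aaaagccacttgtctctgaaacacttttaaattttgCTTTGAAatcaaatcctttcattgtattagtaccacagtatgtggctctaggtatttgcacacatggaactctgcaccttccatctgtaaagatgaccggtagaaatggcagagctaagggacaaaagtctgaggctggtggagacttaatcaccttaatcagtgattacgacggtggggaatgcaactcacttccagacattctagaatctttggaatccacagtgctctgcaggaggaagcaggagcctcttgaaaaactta
That of STOX2 (chr4:183797772-183798071, plus strand) belongs to 1 of 2 annotated starts and has TTCAAAG, the same word on the other strand, at position -159.
STOX2: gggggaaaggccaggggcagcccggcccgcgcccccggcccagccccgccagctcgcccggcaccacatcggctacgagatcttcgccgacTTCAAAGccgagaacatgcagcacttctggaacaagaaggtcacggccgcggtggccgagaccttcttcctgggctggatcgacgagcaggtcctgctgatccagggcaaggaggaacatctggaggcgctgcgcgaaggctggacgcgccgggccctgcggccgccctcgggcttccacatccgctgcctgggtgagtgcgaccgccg
The windows searched for TCF7L1, NODAL, FST, SMARCA2, THBS2, CLC and AIF1 held none of the 4 words. A match describes these letters only, and the arrays do not measure binding.

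No neighbour of a called gene was called. The nearest tested gene on each side of the 10 genes gave 20 neighbours, at distances from 1.29 to 958 kb. Their differences ran from -0.32 for VLDLR, next to SMARCA2, to 0.36 for ENPP6, next to STOX2, against -0.25 and 0.10 with the non-silencing siRNA. LGALS14, a galectin gene beside CLC, had -0.25 (SE 0.11, unadjusted p = 0.0486), against -0.03 with the non-silencing siRNA.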

How the data were processed

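RNA of 9 H9 samples, 3 per group, was measured on 9 arrays. Per the submitters' processing notes, the deposited intensity signals came from PLIER 2.0 in Affymetrix Expression Console 1.1.1; the sources used here name no background or normalization step. The 2 deposited tables were equal (largest difference 0). Control probe sets (4201 of 33297) were left out, and a probe set was tested when at least 3 arrays had it above their 25th percentile. Values became log2(signal + 16), which understates changes of dim genes. A model with 1 mean per group was fitted with limma 3.58.1 in R 4.3.3, two-sided, with Benjamini-Hochberg adjustment over 22784 probe sets and a threshold of 0.05. The array number limits the precision (6 residual degrees of freedom). Positions are the deposited ones, on build 37. Of 21979 probe sets with a chromosome and exactly 1 symbol, 20207 took their symbol by accession from a RefSeq table. Another 818 matched as symbols, 504 matched as synonyms and 450 had no match. The probe set of highest mean stood for a gene.

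Genes were named by a rule: TCF7L1, LEFTY2 and STOX2, every called gene, those of next smallest p up to 12 per direction, in each list the 2 of smallest p and the extremes, set pluripotency, Nodal, Wnt and lineage genes, and neighbours of called genes. The comparison, the lists and the rule were chosen with earlier results of these data known. Lists were described by counts and medians, with no test. The fit was also run on simulated data, and the outcome is not reported here. Alternatives changed the offset, scaling, filter, samples or model. Same-numbered samples were not treated as pairs: of 9 same-numbered pairs, 5 had deviations correlated above 0.1 (from -0.257 to 0.68). Some genes that the rule names are not reported here.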

Additional observations from a re-analysis of the deposited data

How the results depend on the processing

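In the reported setting 7 probe sets were higher and 5 lower with TCF7L1 siRNA than without siRNA. Counts within 1.5 times of these came from the other offsets, scalings, filters, a fit of only the 2 groups, adjustment over the probe sets with 1 symbol and the second deposited table. With the replicate block 8 were higher and 12 lower, and all 10 genes kept their call. The labels do not say whether equal replicate numbers pair the samples. Array weights gave 29 higher and 41 lower, with 1 non-silencing array weighted 8.53; an intensity trend in the prior gave 11 higher; array spread as a covariate gave 14 higher and 10 lower. Without the 2 arrays of narrowest spread 4 were higher and 1 lower. Leaving out 1 array at a time gave 2 to 8 higher and 1 to 7 lower, and TCF7L1 ran from -2.23 to -2.07 in those fits. Counting identical probe sets once, an alternative added after seeing the data, gave 3 lower. Quantile normalization ended the calls of CLC and LEFTY2 (adjusted p = 0.0504 each), and a fit of only the 2 groups those of LEFTY2 (0.0561) and STOX2 (0.0534). The causes were not tested. None of the 10 called genes had another sign in any of the 24 alternatives, and 11 of the 110 other named genes had. With 3 arrays per group and a median SE of 0.119 over all tested probe sets, small differences could go uncalled at any signal level. This held for bright genes as well as for dim ones near the 25th percentile of their arrays. Among the called genes the smallest difference was 0.76, for STOX2, while VCAN, with a mean of 2485 with TCF7L1 siRNA, did not pass at 0.52.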
